A study of Homo sapiens with 8 samples.

Results

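A set of 10 genes was followed across 8 RNA-sequencing libraries of SET-2 cells: the feedback inhibitors CISH, SOCS1, SOCS2 and SOCS3, the serine/threonine kinases PIM1, PIM2 and PIM3, the cytokine OSM, and the transcriptional regulators ID1 and BCL6. They were listed by symbol, as genes known to respond to the transcription factor STAT5, with earlier results of these data known, and all 10 were found among the 25435 rows of the deposited count table. All 10 passed the filter on low counts, which left 14898 genes for testing. SET-2 is a human megakaryoblastic line from an essential thrombocythemia that had transformed to leukemia, and it carries an activating JAK2 mutation in every group compared here. Cells received a virus with a GFP marker and either a guide RNA against ZRSR2, a splicing factor of the minor spliceosome, or a non-targeting guide. The labels name the genotypes ZRSR2 KO and, for the non-targeting guides, ZRSR2 wildtype. Each genotype had 4 libraries, from 2 guides in each of 2 experiments. Odd replicate numbers (1 and 3) belong to guide 1 and even ones (2 and 4) to guide 2, with the lower pair from experiment 1 and the higher pair from experiment 2. RNA was taken on day 20 for one biological replicate and on day 25 for the other, and reading these as experiments 1 and 2 is an assumption.

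In hematopoietic cells a cytokine receptor such as EPOR activates the kinase JAK2, which phosphorylates STAT5A and STAT5B. Phosphorylated STAT5 pairs up, enters the nucleus and binds a palindromic site in target genes. CISH and the SOCS genes are among these targets, and their proteins in turn dampen the receptor and the kinase, so that their messenger RNA is widely used as a readout of pathway activity. PIM kinases support survival and protein synthesis downstream of the same signal. Mutant JAK2 drives this pathway without cytokine in myeloproliferative neoplasms. Phosphorylated STAT5 was not measured in these libraries.

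The STAT site is a sequence feature that can be counted in these genes. It is not independent of their choice, since they were listed as genes known to respond to STAT5. The RefSeq promoter table (GRCh38.p14) covers 250 bases before and 50 bases after a gene's start, and 8 of the 10 genes have an entry in it, OSM and SOCS2 being the exceptions. The letters TTCNNNGAA, which read the same on both strands, were searched in these 300 bases. A match was found in 7.66% of all 35116 promoters, and 4 or more matches in 7 of them, or 0.0199%. CISH and BCL6 were among those 7, with 4 matches each. SOCS1, PIM1, PIM2, PIM3, ID1 and both entries of SOCS3 had 0 matches in their windows, as did a second BCL6 entry. The stretches that hold the matches are shown because CISH and BCL6 are the 2 genes whose windows stand apart in this respect; capitals mark the matches, each sequence runs 5′ to 3′ on the minus strand, and all are reference sequence of chromosome 3.

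CISH, chr3:50611860-50612024: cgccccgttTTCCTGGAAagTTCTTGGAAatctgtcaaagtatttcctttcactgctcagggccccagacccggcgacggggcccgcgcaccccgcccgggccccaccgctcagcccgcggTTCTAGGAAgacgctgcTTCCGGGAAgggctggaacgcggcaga
BCL6, chr3:187745477-187745506: gaagctcaaaTTCCGAGAAttgagctctgt
BCL6, chr3:187745447-187745476: tgaTTCTTAGAActggggTTCTTAGAAgtg
BCL6, chr3:187745419-187745448: tggtgatgcaagaagtTTCTAGGAAaggcc

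The CISH matches lie in 2 close pairs, with first bases at −241 and −230 and at −129 and −112 from the RefSeq start, all upstream of it. The BCL6 matches straddle the start, at −28, −5, 11 and 37. A match describes letters in a window and is not a measured binding site.

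**Figure D1:**
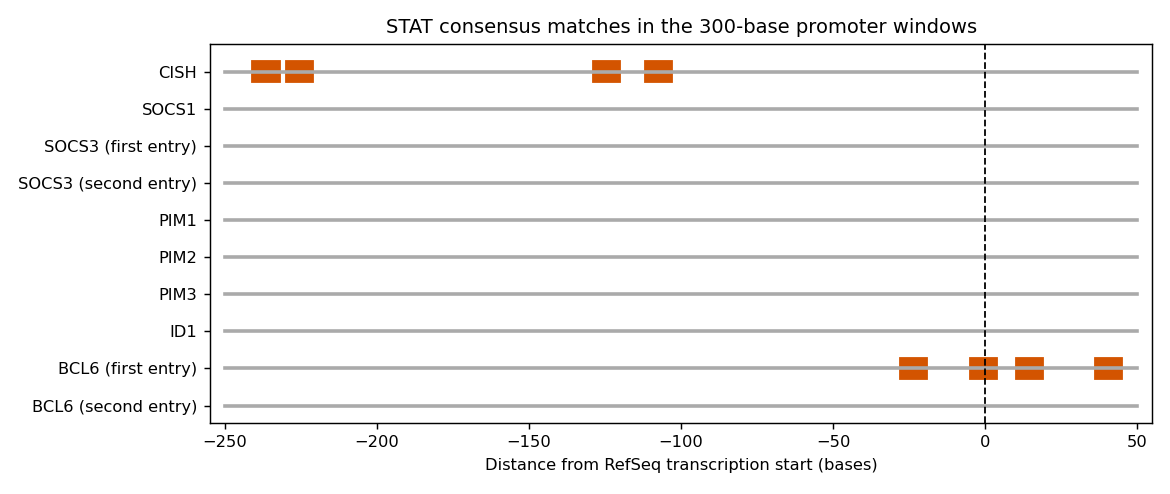
Matches to TTCNNNGAA (orange boxes) along the 300-base RefSeq promoter windows (grey lines); the horizontal axis is the distance in bases from the annotated transcription start (dashed line), and each row is 1 table entry. CISH has 4 matches upstream of its start, the first BCL6 entry has 4 around its start, and the other 8 entries have 0.

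Depth ran from 31106042 to 71521173 expected counts per library, the deepest being non-targeting replicate 3. Levels are given in CPM, counts per 1000000 counts of a library after TMM scaling; 1 count was worth 0.0143 to 0.0324 CPM. The listed genes had between 34 and 80376 counts in a library, with BCL6 the thinnest at 34 to 231. ZRSR2 itself, the check of the labels, had 29.4, 22.9, 28.3 and 18.7 CPM with ZRSR2 guides (replicates 1 to 4) and 37.9, 39.2, 39.7 and 41.1 CPM with non-targeting guides, so the knockout mean was 0.629 times the control mean. Messenger RNA of a cut gene need not follow its protein, which was not measured. Megakaryocyte markers were uneven in the 8 libraries, with ITGA2B at 2085 to 2707 CPM, VWF at 10.7 to 38.8 and PF4 at 1.1 to 3.03. All 8 markers of that list passed the count filter, but so did the fibroblast marker COL1A1 at 5 to 20 counts. Of other lists, the erythroid marker KLF1 was at 359 to 465 CPM and the monocyte marker LYZ at 206 to 266 CPM. The T cell markers CD3E and CD3D had at most 9 counts. The libraries are separate guides and collections of 1 cell line, so the p-values measure the spread between such libraries. For comparisons within or between experiments, that is the spread among libraries of the same genotype and experiment.

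Levels were first compared between genes per length, as CPM per kb of the union of a gene's exons in GENCODE 29. PIM1 (chromosome 6, 37170203 to 37175426 on GRCh38) was the highest at 270 ± 103 CPM per kb (SD, n = 8), followed by PIM2 (chromosome X, 48913182 to 48919024) at 101 ± 3.65. Next came ID1 (chromosome 20, 31605283 to 31606515) at 39.1 ± 7.27 CPM per kb. PIM3 (chromosome 22, 49960513 to 49964080) at 26.7 ± 2.68 and CISH (chromosome 3, 50606490 to 50611831) at 24.9 ± 7.36 did not differ beyond their spread. Nor did OSM (chromosome 22, 30262829 to 30266840), SOCS2 (chromosome 12, 93569814 to 93583487) and SOCS3 (chromosome 17, 78356778 to 78360077), at 12.1 ± 4.94, 10.1 ± 0.484 and 9.3 ± 2.05 CPM per kb over both experiments together. SOCS1 (chromosome 16, 11254405 to 11256200) was at 5.05 ± 1.7 and BCL6 (chromosome 3, 187721377 to 187745727) was the lowest at 0.386 ± 0.176 CPM per kb. Divided by the longest transcript instead, SOCS2 came to 18.3 CPM per kb and moved ahead of OSM at 13.8, and the other 8 genes kept their places. SOCS3 stayed at 9.3, so the nearness of SOCS2 to SOCS3 held for the exon union only. For CISH the 2 lengths were nearly equal, at 5112 and 5042 bases, and took in most of the gene's span. The change of length could thus hardly move CISH. A shorter CISH transcript would give a higher level per kb, which was not computed.

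The spread of PIM1 and CISH over the libraries followed the experiments, and so did the order of CISH and PIM3: CISH was below PIM3 in experiment 1, at 18.6 ± 0.881 against 28.4 ± 2.02 CPM per kb, and above it in experiment 2, at 31.2 ± 4.39 against 25 ± 2.22 (SD, n = 4). SOCS2, SOCS3 and OSM changed places as well. These orders by experiment are given for the exon union and were not taken with another length. In experiment 1 SOCS2, at 10.3 ± 0.261 CPM per kb, was above SOCS3 at 7.52 ± 0.651 beyond their spread, with OSM at 8.35 ± 1.92. In experiment 2 OSM, at 15.8 ± 4, was followed by SOCS3 at 11.1 ± 0.978 and SOCS2 at 9.86 ± 0.576. PIM2 and SOCS2 differed little between libraries. Genes of the opposite strand overlap CISH (MAPKAPK3), SOCS1 (RMI2), SOCS2 (SOCS2-AS1) and BCL6 in GENCODE 29, and the use of strand in counting is not given in the sources used here, so reads of these pairs may not be told apart.

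**Figure D2:**
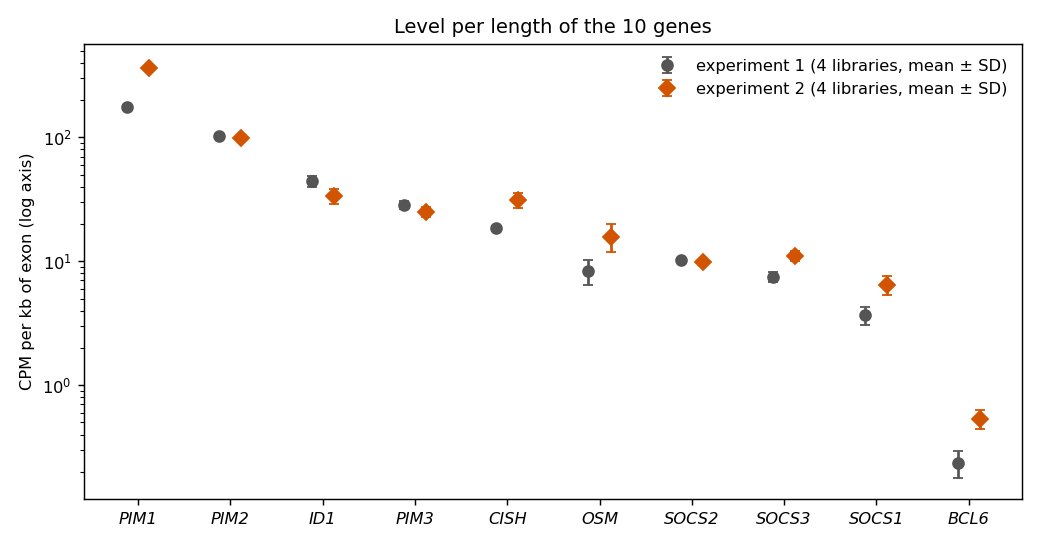
Level per length of the 10 genes, in CPM per kb of exon on a log axis, as mean ± SD of the 4 libraries of experiment 1 (grey circles) and of experiment 2 (orange diamonds), ordered by the mean over all 8. PIM1 lies at 175 and 365 CPM per kb, while BCL6 lies at 0.235 and 0.537.

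The first comparison asked whether the STAT5-responsive genes differ between ZRSR2 knockout and non-targeting cells. None of the 10 passed the threshold, an adjusted p under 0.05 in edgeR's quasi-likelihood test over all genes. The background is 0% of all 14898 genes, also 0% with the experiment as a block, so the count says nothing particular to these genes. At an unadjusted p under 0.05 there were 0 listed genes and 89 of all genes, and with the block 0 and 690. DESeq2 called 4 genes without the block, none of them listed. With the block it called 31, 0.208% of those tested, and again 0 of the listed ones.

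CISH, the founding member of the family and a direct target of STAT5, measured 93.8, 94.3, 163 and 155 CPM in the knockout libraries, replicates 1 to 4 in that order. The controls, in the same order, gave 101, 90.3, 187 and 133 CPM. The means of 127 ± 37.7 and 128 ± 43.4 CPM (SD, n = 4) were nearly equal, and in each experiment the knockout libraries fell between their 2 controls.

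SOCS1 and SOCS3, which inhibit JAK kinases directly, overlapped between genotypes as well. SOCS1 stood at 7.49, 5.06, 10.9 and 12.4 CPM in the knockout libraries and at 7.02, 6.77, 13.8 and 9.15 CPM in the controls. For SOCS3 the knockout values were 22.5, 18.9, 26.6 and 32.1 CPM and the control values 21.7, 19.2, 30.1 and 32.4 CPM. SOCS2, a regulator best known for restraining growth hormone signalling, was the flattest of the 4, at 71.4, 67.4, 69.2 and 70.9 CPM with ZRSR2 guides and 71, 70.1, 64.5 and 62.6 CPM without. Its knockout libraries lay above the controls in experiment 2 alone, where 23.5% of all genes showed no overlap.

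The PIM kinases overlapped between genotypes too. PIM1 was at 542, 494, 1107 and 997 CPM in knockout and 537, 516, 1145 and 1100.1 CPM in control libraries. PIM2 was at 292, 290, 276 and 280 CPM in knockout against 277, 268, 278 and 262 CPM in control libraries. PIM3 was at 72.3, 63.2, 56.8 and 66.2 CPM in knockout against 69.4, 74.7, 66.2 and 56.7 CPM in control libraries. Only PIM2 had both knockout libraries above both controls in experiment 1, which 36.4% of all genes had in either direction.

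OSM, an interleukin-6 family cytokine, gave 23.1, 14.9, 39.7 and 32.1 CPM in knockout and 18.3, 14.3, 40.05 and 22 CPM in control libraries. ID1, an inhibitor of basic helix-loop-helix factors that also responds to BMP signals, was at 46.9, 57, 36.5 and 49.8 against 59.6, 56.4, 41.5 and 38.1 CPM. BCL6, a transcriptional repressor, was at 1.18, 1.61, 2.61 and 2.98 against 1.75, 1.04, 3.29 and 3.87 CPM. Its knockout libraries were below both controls in experiment 2 and overlapped them in experiment 1. Over all 8 libraries the genotypes overlapped in all 10 listed genes, where 0.678% of all genes did not overlap.

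**Figure D3:**
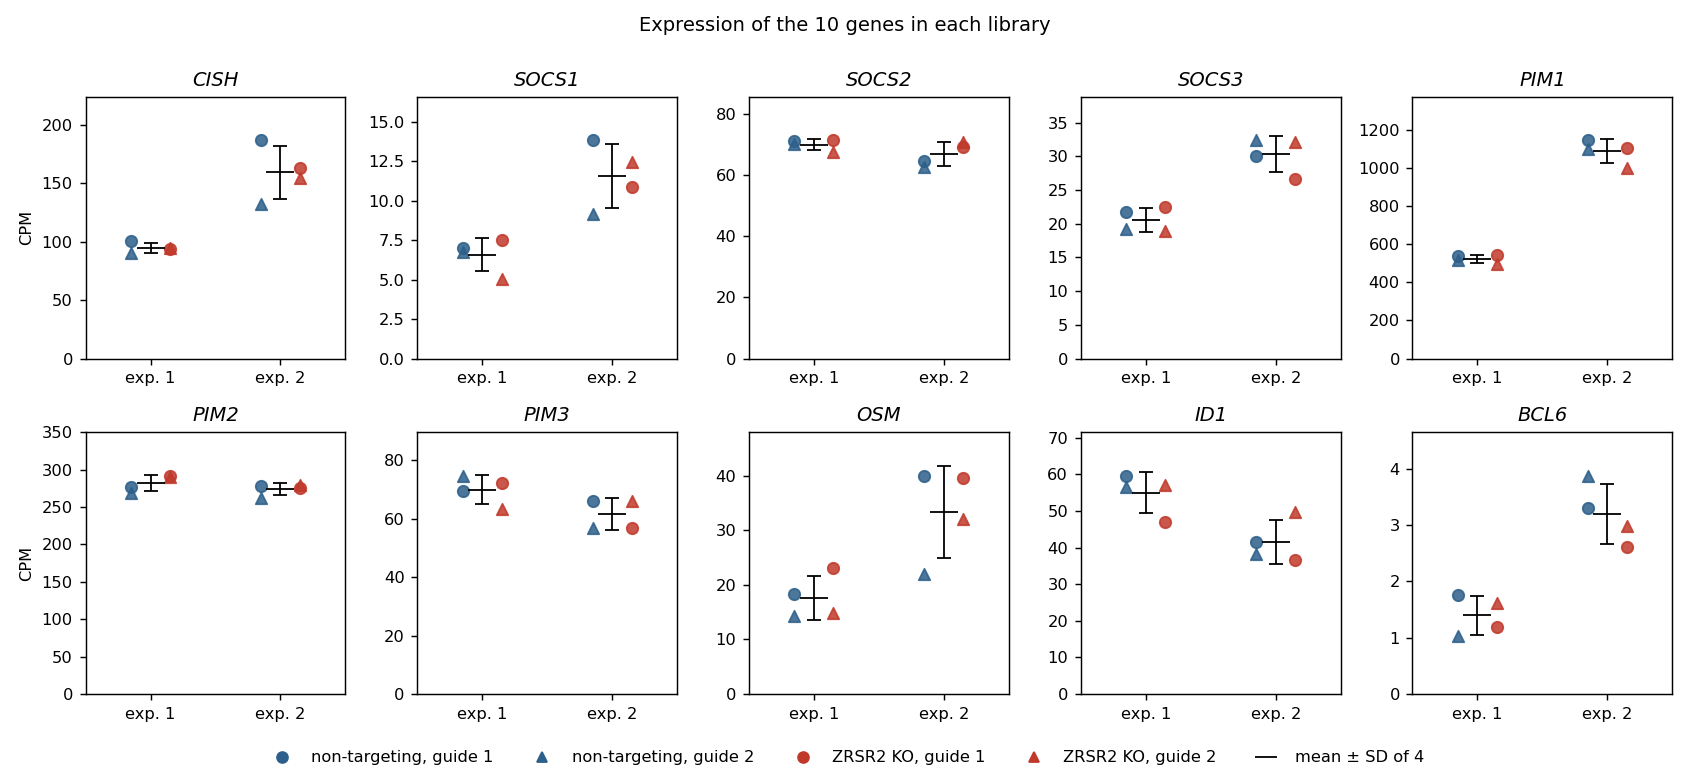
CPM of each gene (1 panel each, linear axis from 0) in the 4 libraries of experiment 1 and the 4 of experiment 2; blue is non-targeting, red is ZRSR2 KO, circles are guide 1, triangles guide 2, and black bars give mean ± SD of the 4 libraries. Red and blue points mix within an experiment, while CISH, SOCS1, SOCS3, PIM1 and BCL6 have every library of experiment 2 above every library of experiment 1.

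The size of genotype difference that these data allow follows from the blocked fit, which removes the mean difference between experiments and in which the 95% interval of the knockout to control fold covered 1 for all 10 genes. It was 0.857 to 1.14 for CISH, 0.76 to 1.21 for SOCS1, 0.942 to 1.15 for SOCS2 and 0.844 to 1.12 for SOCS3. PIM1 had 0.873 to 1.06, PIM2 0.96 to 1.14 and PIM3 0.856 to 1.1. The widest intervals were those of OSM, 0.878 to 1.52, and BCL6, 0.65 to 1.18, while ID1 had 0.837 to 1.16. Without the block the PIM1 interval ran from 0.534 to 1.7, since the difference between experiments then counted as spread.

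Tested within each experiment, knockout against control called 0 of the 10 genes in experiment 1 and 0 in experiment 2, with a background of 0% in each and 305 and 645 genes at an unadjusted p under 0.05, none of them listed. DESeq2 called 5 and 13 of all genes there and 0 of the listed ones. The log2 fold changes of CISH were −0.03 (SE 0.14) and −0.01 (SE 0.14), and those of PIM1 −0.02 (SE 0.09) and −0.09 (SE 0.09). The difference between the knockout effects of the experiments was tested directly and also called 0 of the 10 genes, against 0% of all genes, with 0 listed genes and 248 of all genes at an unadjusted p under 0.05. Its largest value among the 10 was −0.37 (SE 0.40) for BCL6. In experiment 2 the CISH effect depended on single libraries: with 1 library left out it ran from −0.21 to 0.26. The high end came without non-targeting replicate 3, which leaves non-targeting replicate 4 as the only control of that experiment.

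**Figure D4:**
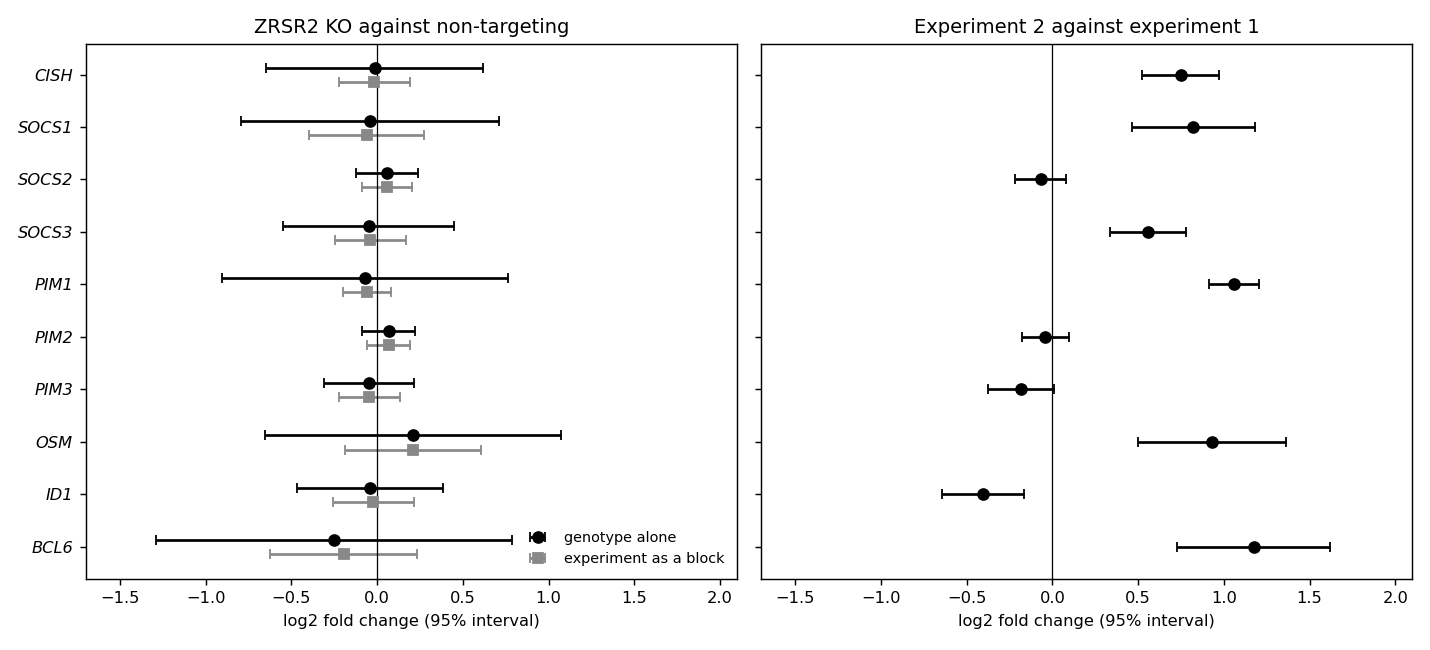
Log2 fold changes with 95% intervals for ZRSR2 KO against non-targeting (left; black circles genotype alone, grey squares with the experiment as a block) and for experiment 2 against experiment 1 (right; fit with genotype by experiment cells). On the left every interval crosses 0; on the right CISH, SOCS1, SOCS3, PIM1, OSM and BCL6 lie above 0 and ID1 below it.

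The second comparison set experiment 2 against experiment 1 over both genotypes. Among the listed genes, 7 of 10 passed the threshold in edgeR, 6 higher and 1 lower in experiment 2, and their median log2 fold change was 0.65 against 0.003 over all genes tested. In this comparison 58.2% of all genes passed, 29.6% higher and 28.6% lower, so the count of 7 lies near the background. The direction of the list was not tested, and since the genes were listed with earlier results known, its median is a description only. The listing gives no direction of response to STAT5 for any gene, BCL6 included. The count and the median therefore pool the genes whatever that direction is, and a rise is not a measure of STAT5 activity. Each experiment was a single collection, so its day and any batch cannot be told apart from it. The p-values of this comparison rest on the spread between guide libraries within an experiment. They hold no spread between repeated collections, so they do not show that other collections would differ alike.

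Of the feedback inhibitors, 3 rose. For CISH the mean was 94.9 ± 4.5 CPM in experiment 1 and 159 ± 22.4 CPM in experiment 2 (SD, n = 4). In log2 units CISH rose by 0.75 ± 0.10 (SE; edgeR adjusted p 1.12e-04). SOCS1 rose from 6.59 ± 1.06 to 11.6 ± 2.01 CPM, or by 0.82 ± 0.16 in log2 units (SE; edgeR adjusted p 0.00134). SOCS3 rose from 20.6 ± 1.78 to 30.3 ± 2.67 CPM, or by 0.56 ± 0.10 in log2 units (edgeR adjusted p 7.37e-04). In all 3 the libraries of experiment 2 lay above those of experiment 1 without overlap, as in 28% of all genes. SOCS2 did not pass, at 70 ± 1.77 and 66.8 ± 3.91 CPM; its 95% interval allowed a fold between 0.861 and 1.06.

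The PIM kinases split in the same manner. PIM1 rose, its mean being 522 ± 21.7 CPM in experiment 1 and 1087 ± 63.2 CPM in experiment 2 (SD, n = 4), a fold of 2.08 with a 95% interval of 1.88 to 2.3 and an edgeR adjusted p of 1.09e-06. PIM2 was at 282 ± 11.2 and 274 ± 8.24 CPM, with an interval of 0.885 to 1.07 that ends well short of the fold of PIM1. PIM3 was at 69.9 ± 4.97 and 61.5 ± 5.46 CPM, with an interval of 0.77 to 1.01 and an edgeR adjusted p of 0.0943; it passed, at 0.0301 and a log2 fold change of −0.24, once non-targeting replicate 3 was left out. Taken as a ratio inside each library, where scaling cancels, PIM1 to PIM2 was 1.7 to 1.94 in the experiment 1 libraries and 3.57 to 4.2 in those of experiment 2. The ratio of CISH to SOCS2 was 1.29 to 1.42 and then 2.12 to 2.9. Both ratios were chosen after their values were seen and restate the values above without a test.

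OSM rose from 17.6 ± 4.06 to 33.5 ± 8.45 CPM, by 0.93 ± 0.20 in log2 units (SE; edgeR adjusted p 0.00194). It passed the threshold although 1 library of experiment 2, non-targeting replicate 4 at 22 CPM, lay below the highest of experiment 1, knockout replicate 1 at 23.1 CPM. BCL6 rose from 1.39 ± 0.339 to 3.19 ± 0.534 CPM, the largest change of the set at 1.18 ± 0.20 in log2 units (adjusted p 5.48e-04 in edgeR), on the fewest counts. ID1 was the 1 gene that fell, from 55 ± 5.58 to 41.5 ± 5.9 CPM, or −0.40 ± 0.11 in log2 units (adjusted p 0.0078 in edgeR), with knockout replicate 4 at 49.8 CPM above knockout replicate 1 at 46.9 CPM. Among all genes tested, 6.79% had a log2 fold change at least as high as that of BCL6, 8.14% as that of PIM1 and 18.7% as that of SOCS3.

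The shift was seen in each genotype on its own. In control libraries the same 6 genes passed as higher and ID1 as lower, where 23.9% of all genes were higher and 23% lower. In knockout libraries the 6 again passed as higher, where 18.9% of all genes were higher and 18% lower, while ID1 did not pass there, at a log2 fold change of −0.27 (SE 0.15) against −0.54 (SE 0.15) in controls; the difference between these values, 0.27 (SE 0.22), did not pass. PIM1 rose by 1.09 (SE 0.09) in controls and 1.02 (SE 0.09) in knockout cells, and CISH by 0.74 (SE 0.14) and 0.76 (SE 0.14). With DESeq2 the OSM call in knockout cells was lost, at an adjusted p of 0.0611.

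Each guide was used in both experiments. The ratio of experiment 2 to experiment 1 was above 1 with all 4 guides for CISH, SOCS1, SOCS3, PIM1, OSM and BCL6. For all of them but OSM this follows from their libraries not overlapping between experiments, as in 28% of all genes. The share of all genes with 4 such ratios was not counted. Among the genes that rose, PIM1 had the tightest ratios, 2.13 for both non-targeting guides and 2.04 and 2.02 for ZRSR2 guides 1 and 2. For CISH they were 1.85, 1.47, 1.74 and 1.64 in the same order, and for OSM 2.18, 1.54, 1.72 and 2.16. BCL6 ranged from 1.85 to 3.74. ID1 was below 1 with all 4 guides, at 0.697, 0.676, 0.78 and 0.873, while SOCS2 and PIM3 had ratios on both sides of 1 and PIM2 stayed between 0.945 and 1.005.

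**Figure D5:**
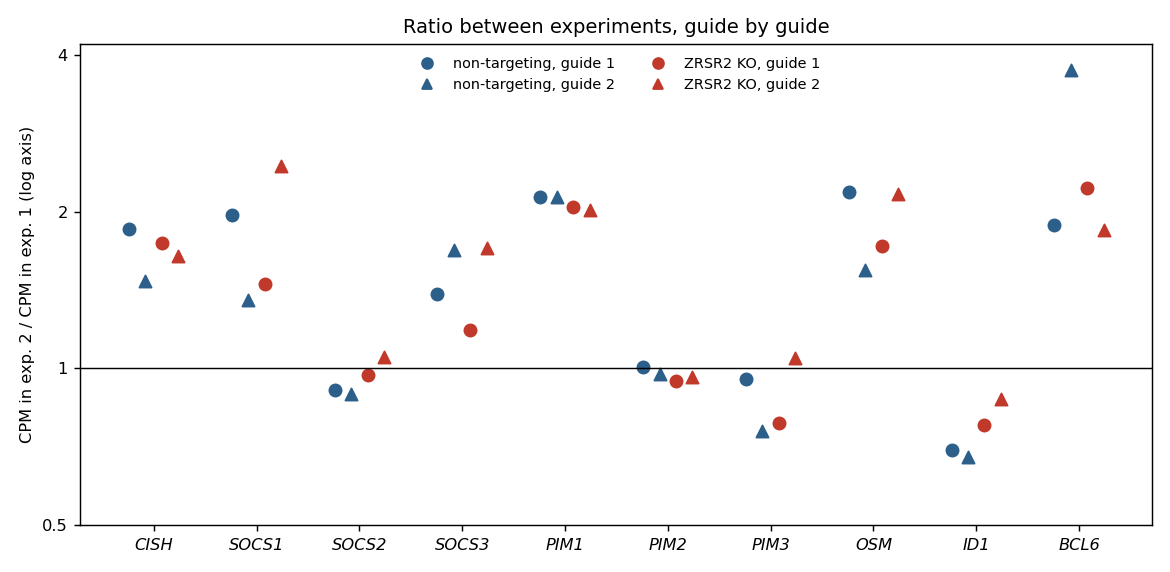
Ratio of CPM in experiment 2 to CPM in experiment 1 for each gene and each of the 4 guides (log axis; blue non-targeting, red ZRSR2, circles guide 1, triangles guide 2; the line marks equality). PIM1 sits near 2 with every guide, PIM2 near 1, and ID1 between 0.676 and 0.873.

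Guides of 1 genotype were compared for the background between cultures. ZRSR2 guide 2 against guide 1, and non-targeting guide 2 against guide 1, called 0 of the 10 genes, against 0% of all genes, in fits with and without the experiment as a block. For the ZRSR2 guides, blocked DESeq2 called 2 of all genes, none of them listed. At an unadjusted p under 0.05, the fits without the block held 0 listed genes of 27 and of 13 in all, and the block fits held 2 listed genes each, of 376 and of 482. OSM was in both pairs and was lower with guide 2, with block log2 fold changes of −0.46 (SE 0.15) for the ZRSR2 guides and −0.62 (SE 0.15) for the non-targeting guides. Their unadjusted p-values in edgeR were 0.008 and 0.0012, and the adjusted ones 1 and 0.93. The other genes were ID1 for the ZRSR2 guides, at 0.37 (SE 0.13), and CISH for the non-targeting guides, at −0.33 (SE 0.11). The non-targeting pair of experiment 2, at 187 and 133 CPM of CISH and 40.05 and 22 CPM of OSM, enclosed both knockout libraries of that experiment in both genes.

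The genes also varied within experiments. After subtracting each experiment's mean from the log2 CPM, Pearson's r over the 8 libraries was 0.76 for CISH with OSM, 0.63 for CISH with SOCS1 and 0.72 for SOCS1 with OSM. OSM with PIM2 had 0.67, and PIM1 with ID1 the lowest value of all pairs, −0.66. PIM1 had 0.35 with CISH, and BCL6 had −0.03 with CISH. These values describe 8 libraries that share depth and scaling. The pair SOCS1 and PIM3 gave the highest value, 0.87. Before subtraction CISH and PIM1 had 0.95.

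The rest of the pathway was described from 5 lists, 53 genes in all, of which 50 passed the count filter. CSF2RA and IL3RA were listed at 0 in every library, and ID4 had at most 3 counts. Whether the 0 values of CSF2RA and IL3RA reflect absent expression or the way reads were counted was not tested. In the fit of genotype alone, knockout against control called 0 of the 50, with 0 at an unadjusted p under 0.05 in edgeR. That fit counts the difference between experiments as spread. The number of the 50 under 0.05 with the experiment as a block is not reported here. Without the block the median log2 fold change was −0.04. JAK2 was at 0.03 (SE 0.18), STAT5A at 0.02 (SE 0.13), STAT5B at −0.15 (SE 0.25) and SH2B3 at −0.00 (SE 0.21). With the experiment as a block STAT5B was at −0.15 (SE 0.06), with an unadjusted p of 0.0342 and an adjusted p of 1 in edgeR. Between experiments 30 of 50 passed, or 60%, close to the 58.2% of all genes, 17 of them higher and 13 lower in experiment 2.

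Upstream of the targets, 8 of 10 receptor genes passed, 6 higher and 2 lower, with a median log2 fold change of 0.47, where 58.2% of all genes passed. In controls alone 9 of 10 passed (median 0.56), where 6982 of all 14898 genes passed. In knockout cells 3 of 10 passed (median 0.28), where fewer of all genes passed as well, 5498. The difference between the genotypes' changes, tested directly in edgeR, called 0 of the 10 receptors, with 0 at an unadjusted p under 0.05. Knockout against control within experiment 2 gave no receptor above 0, with a median of −0.19, 0 calls and 2 at an unadjusted p under 0.05. CSF3R, the G-CSF receptor, rose from 12.6 to 48.3 CPM, or by 1.93 ± 0.10 in log2 units (adjusted p 5.46e-07 in edgeR). CSF2RB, the common beta chain, rose from 776 to 1146 CPM, and IL4R fell from 242 to 196 CPM. CSF3R libraries did not overlap, at 11.7 to 14.3 CPM in experiment 1 and 41.6 to 58 CPM in experiment 2.

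Kinases and STATs moved both ways, 3 of 11 higher and 3 lower, with a median of 0.04, where 29.6% of all genes were higher and 28.6% lower. JAK2 rose from 130.1 to 178 CPM, or by 0.45 ± 0.09 in log2 units (adjusted p 0.00152 in edgeR), and JAK3 from 212 to 311 CPM. The neighbouring STAT5 genes went apart: STAT5B rose from 247 to 407 CPM, with 0.72 (SE 0.06, edgeR adjusted p 7.57e-06), and STAT5A fell from 602 to 494 CPM, with −0.29 (SE 0.07, edgeR adjusted p 0.00648). STAT4 fell from 44.8 to 30.8 CPM. STAT5A and STAT5B are close copies of each other, so their counts depend on how RSEM assigned shared reads.

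Among 15 other negative regulators, 5 were higher and 2 lower, where 29.6% of all genes were higher and 28.6% lower. The 2 lower ones were SH2B3, the adaptor LNK that restrains JAK2, from 205 to 137 CPM or −0.58 ± 0.07 in log2 units (adjusted p 4.71e-05 in edgeR), and the phosphatase PTPN6, from 474 to 308 CPM. CBLB rose from 22.5 to 38.9 CPM and PTPN1 from 298 to 449 CPM. SH2B3 thus fell while CISH, SOCS1 and SOCS3 rose.

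Other genes known as STAT5 targets gave 2 higher and 4 lower of 10, with a median of −0.02, beside the same 29.6% and 28.6% of all genes. BCL2 rose from 18.4 to 33.3 CPM, whereas CDKN1A fell from 49.1 to 23.8, MCL1 from 244 to 196 and GFI1 from 54.4 to 37.8 CPM. Of 4 tested family relatives, ID3 rose from 6.05 to 8.01 CPM, but it passed in neither genotype alone. Its non-targeting replicate 4 of experiment 2, at 5.82 CPM, lay inside the experiment 1 range of 5.66 to 6.47 CPM. ID2 fell from 164 to 97.1 CPM as ID1 did, and LIF, the cytokine next in family to OSM, fell from 289 to 102 CPM. LIF in knockout replicate 2 was at 129 CPM, far below the 312 to 357 CPM of the other 3 libraries of experiment 1.

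Of the tested markers of other cell types, 2 of 4 erythroid ones passed as higher and 1 as lower in experiment 2, as did the 1 B cell and the 1 epithelial marker tested (higher), 1 of 3 fibroblast markers (lower) and 0 of 2 monocyte markers, where 58.2% of all genes passed. Of the 8 megakaryocyte markers, the line's own type, 3 passed as higher and 1 as lower. The summed B cell markers went from 10.3 to 11.5 CPM in experiment 1 to between 32.4 and 51.2 CPM in experiment 2, carried by CD79A. Erythroid markers summed to 423 to 449 and then 465 to 560 CPM, and megakaryocyte markers to 2759 to 2987 and then 2910 to 3641 CPM. Epithelial markers summed to 3.76 to 6.57 and then 11.8 to 21.1 CPM, and fibroblast markers to 3.37 to 4.05 and then 0.627 to 1.37 CPM, while monocyte markers overlapped. Their part in the rise of the listed genes was not tested.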

How the data were processed

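The 8 messenger RNA libraries were analysed from a table of expected counts, 1 row per gene symbol, that the authors deposited. Per the submitters' processing notes, cutadapt 1.11, RSEM 1.2.30 and the build hg19 were used; the aligner, annotation and strand setting are not given in the sources used here. The deposited expected counts were whole numbers, and rounding changed none. Columns were matched to samples by the library number in the titles, and 0 columns belonged to other samples. Totals ran from 31106042 to 71521173.

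Low-count genes were removed by filterByExpr given the genotype, libraries were scaled by TMM, and the quasi-likelihood test of edgeR was run on the remaining 14898 genes, with p-values adjusted over all of them by the Benjamini-Hochberg method and a threshold of 0.05. Knockout against control used genotype alone; a fit that adds experiment as a block was its alternative. Effects within and between experiments came from one fit of 4 genotype by experiment cells, and guide effects from one fit of 4 guides. Deviations from the genotype means correlated at 0.678 to 0.846 between knockout and control libraries of the same experiment. Between experiments they correlated at −0.816 to −0.709. The block fit therefore treated the experiment number as pairing these libraries. The fit of genotype alone ignored the pairing and counted the difference between experiments as spread. Standard errors were derived from F. Log2 CPM used a prior count of 2. The code was tested on simulated data. The listed genes, the pathway lists and the naming rule (all listed genes, up to 4 passing genes of smallest p per pathway list, and the axis genes JAK2, STAT5A, STAT5B and SH2B3) were chosen with earlier results of these data known. Some genes of the pathway and marker lists are not reported here by name. Lengths and positions are from GENCODE 29 (GRCh38). Alternatives were DESeq2, its size factors, other count filters and leaving out each library. Software was R 4.3.3, edgeR 4.0.16, DESeq2 1.42.0, matplotlib 3.10.9 and Python 3.11.15.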

Additional observations from a re-analysis of the deposited data

How the results depend on the processing

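In the comparison of experiments all 7 passing genes kept their direction and call under each of the 13 alternatives, which gave 7 or 8 listed calls and 7178 to 9312 calls in all; without one library the log2 fold change of PIM1 was 1.02 to 1.10 and of CISH 0.62 to 0.86. Knockout against control called 0 listed genes under every alternative, the replicate block included, which changed no call. Calls over all genes were less stable: knockout against control had 4 with DESeq2 and 31 with DESeq2 and the replicate block, experiment 1 had 40 without a count filter, 5 with DESeq2 and 0 to 2 without one library, experiment 2 had 116, 13 and 0 to 154 (154 without non-targeting replicate 3), the difference of effects had 5 without a filter, and the ZRSR2 guides had 2 with DESeq2 and the replicate block.

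Signs of the uncalled genotype differences turned when one library was left out, which also unbalances the experiments. Over both experiments the log2 fold change then ran from −0.158 to 0.229 for CISH, −0.238 to 0.229 for SOCS1, −0.192 to 0.0923 for SOCS3, −0.282 to 0.129 for PIM1, −0.106 to 0.013 for PIM3, −0.019 to 0.591 for OSM, −0.138 to 0.0698 for ID1 and −0.507 to 0.0528 for BCL6. Within experiment 1 it ran from −0.0987 to 0.063 for CISH, −0.441 to 0.126 for SOCS1, −0.0609 to 0.0225 for SOCS2, −0.111 to 0.142 for SOCS3, −0.0864 to 0.0472 for PIM1, −0.185 to 0.0102 for PIM3, −0.128 to 0.509 for OSM and −0.31 to 0.441 for BCL6. Within experiment 2 it ran from −0.21 to 0.261 for CISH, −0.224 to 0.347 for SOCS1, −0.232 to 0.0400 for SOCS3, −0.114 to 0.117 for PIM3, −0.136 to 0.703 for OSM and −0.126 to 0.321 for ID1. None of these passed the threshold. Within an experiment, leaving out a library left 1 in its arm, which is then assumed to vary like the others. Depth limits BCL6 most, at 34 counts in its thinnest library.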

Other observations

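The genes whose pattern was most like that of CISH, among 11013 genes with a mean of at least 5 CPM, were FN3K, CDR2L and DNPH1, with Pearson's r of 0.996, 0.991 and 0.990 on log2 CPM over the 8 libraries. FN3K was at 51.9, 51, 54 and 48.7 CPM in knockout replicates 1 and 2 and control replicates 1 and 2, and at 77.5, 72.9, 90.2 and 66.8 CPM in replicates 3 and 4 of the same groups. In all, 351 genes had an r of at least 0.95, so such a likeness is common here. With each experiment's mean subtracted, 17 genes did, led by SLC45A4 at 0.982, FN3K at 0.979 and PTRH2 at 0.979; SLC45A4 and PTRH2 were lower in experiment 2, at means of 45.3 against 52.2 CPM and 20.3 against 28 CPM.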
